A study of Mus musculus with 4 samples.

Results

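The activity-induced immediate early genes Fos, Fosb, Jun, Junb, Egr1, Egr3, Arc, Npas4, Nr4a1 and Nr4a3 were followed across the cell classes, subtypes and ages of the developing mouse superior colliculus, a midbrain centre for vision and orienting. They were taken as the rows of the deposited matrix that carried these symbols, and all 10 were found among its 31053 genes. The animals were C57BL/6J mice of 4 ages: before birth on embryonic day 19 (E19), and after birth on day 4 (P4), day 8 (P8) and day 21 (P21). The protocol in the labels abbreviates the first age as E10 beside the words for day 19, and the stage of the sample title, E19, was used. A single library was made per stage from tissue of pooled animals, whose number and sexes are not given, and the labels give no genotype or treatment that differed between libraries. The authors' annotation placed 9724 nuclei in 9 classes and 35 subtypes, 25 of them neuronal. Mouse eyes open between P8 and P21, so the step between these libraries spans eye opening, together with every other difference between the ages and between the libraries.

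Immediate early genes are transcribed within minutes of strong synaptic input, without the need for new protein. Calcium entry and the cyclic AMP and MAP kinase pathways reach factors that already sit on their promoters, among them CREB and the serum response factor. Most of the products are transcription factors that in turn switch on later genes, while Arc acts at the synapse itself. Their transcripts are short-lived, and in the visual system they are widely used to mark recently active neurons. Many are also induced by growth factors, and in non-neuronal cells.

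Excitatory neurons numbered 1338, 1206, 867 and 682 nuclei at E19, P4, P8 and P21, and inhibitory neurons 893, 738, 1088 and 740. Levels are given in CPM: the unique molecular identifiers (UMIs) of a gene, summed over the nuclei of a class and library, per 1000000 UMIs of that sum. The sums ran from 11531980 to 14895162 UMIs in excitatory neurons and from 5961465 to 11303082 in inhibitory neurons. With 1 library a stage no test between stages was possible, and every interval is a 95% interval for counting error only; whether a difference would recur in other animals was not measured. The vesicular glutamate transporter genes Slc17a6 and Slc17a7 were highest in the excitatory class and Gad1, Gad2 and Slc32a1 in the inhibitory class, as the labels have it, but the epithelial markers were highest in astrocytes and the oligodendrocyte precursor markers in dividing cells. Of all barcodes, 9 occurred in more than 1 library.

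At P21 7 of the 10 genes stood at 2-fold or more of their P8 level in excitatory neurons, and the same 7 in inhibitory neurons: Fos, Fosb, Junb, Egr1, Egr3, Arc and Nr4a3. The other 3, Jun, Npas4 and Nr4a1, differed by less than 2-fold in both classes, and no gene was lower by 2-fold. Over every gene with a UMI, 11.6% were higher by 2-fold or more in excitatory neurons and 11.4% in inhibitory neurons. Under the stricter rule used below, at least 5 CPM in the higher stage and 20 UMIs in both stages together, 8 of the 10 genes could be called in excitatory neurons and 6 of them were higher by 2-fold, with 4.43% of all genes called higher and 6.45% lower. In inhibitory neurons 6 could be called and 3 were higher, with 4.76% of all genes called higher and 6.88% lower. A gene near 0 at P8 passes that rule only where it is high at P21, so these counts are a description and not support.

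**Figure D1:**
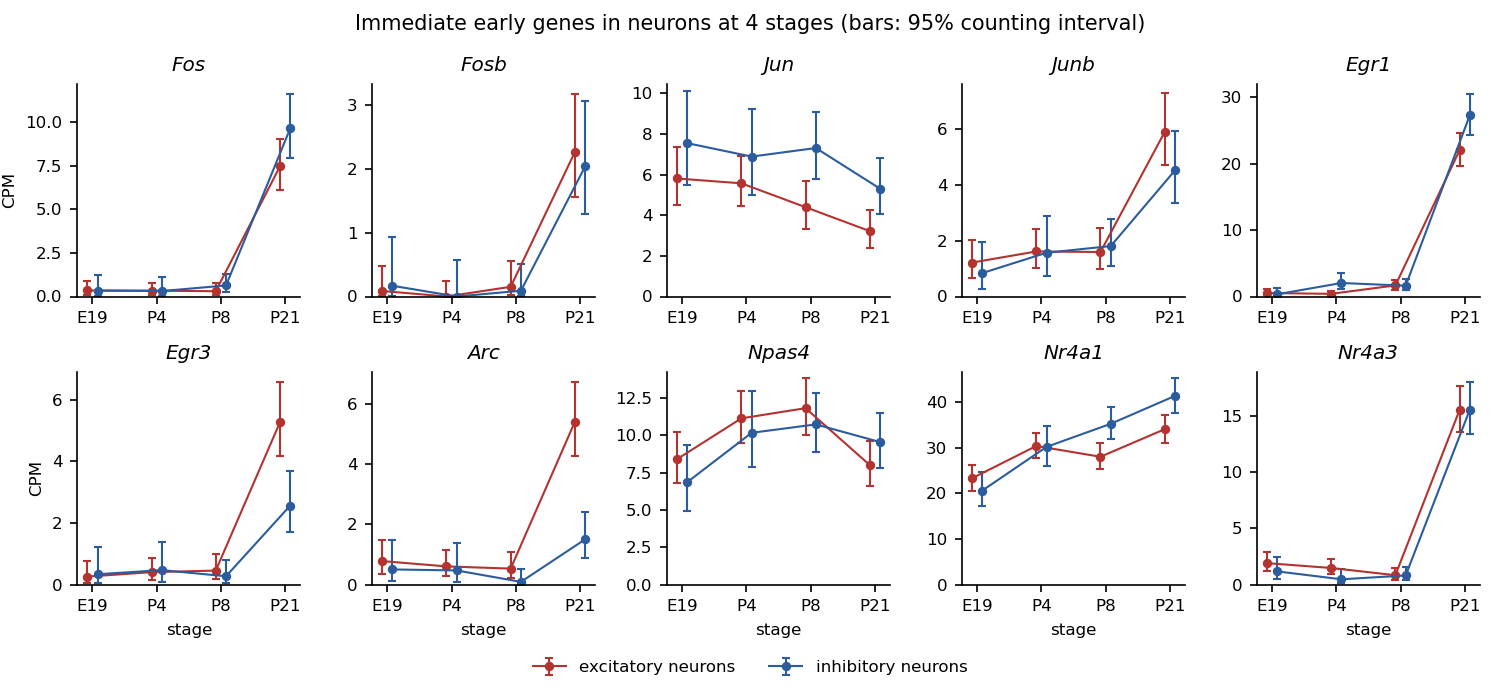
Level of each gene in CPM (vertical axes, 1 scale a gene) at the 4 stages (horizontal axes), with excitatory neurons in red and inhibitory neurons in blue; each point is 1 library and the bars are 95% Poisson intervals. Fos, Fosb, Junb, Egr1, Egr3, Arc and Nr4a3 stay low to P8 and are higher at P21, while Jun, Npas4 and Nr4a1 are present from E19.

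Fos, Fosb, Jun and Junb encode subunits of AP-1, a dimeric factor in which a Fos protein pairs with a Jun protein. In excitatory neurons Fos stood at 0.347, 0.336, 0.303 and 7.46 CPM at E19, P4, P8 and P21, on 4, 5, 4 and 109 UMIs. The P21 level was 24.6-fold that at P8 (9.34 to 91.9). In inhibitory neurons Fos stood at 0.335, 0.313, 0.632 and 9.64 CPM, and the P21 level was 15.3-fold that at P8 (7.16 to 38.9). Fos was thus nearly undetected in both classes until P8. Fosb, a Fos relative with a truncated and long-lived splice form, was counted 1, 0, 2 and 33 times in excitatory neurons and 1, 0, 1 and 23 times in inhibitory neurons. The ratio of P21 to P8 was 14.9 (3.81 to 128) and 22.5 (3.66 to 929), wide because it rests on 2 and 1 UMIs at P8.

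Junb, which pairs with Fos proteins and restrains Jun, was already present before P21. It stood at 1.21, 1.61, 1.59 and 5.89 CPM in excitatory neurons, and P21 was 3.70-fold P8 (2.27 to 6.28). In inhibitory neurons it stood at 0.839, 1.57, 1.80 and 4.51 CPM, and P21 was 2.50-fold P8 (1.46 to 4.43). Jun, a member of the same dimers, was not higher at P21. It stood at 5.81, 5.57, 4.40 and 3.22 CPM in excitatory neurons and at 7.55, 6.89, 7.31 and 5.31 CPM in inhibitory neurons. The ratio of P21 to P8 was 0.73 in both, with intervals of 0.49 to 1.09 and 0.51 to 1.03 that include 1. With nuclei thinned to 2000 UMIs the log2 ratio of Jun was -0.98 in excitatory and -1.37 in inhibitory neurons, the latter lower by over 2-fold. Thinned to 5000 UMIs, Jun stood at 3.52 and 4.47 CPM at P8 and P21 in excitatory neurons, on 15 UMIs at each age. In inhibitory neurons it then stood at 7.39 and 4.69 CPM, on 38 and 17 UMIs. The direction in excitatory neurons thus differed between the thinned depths. In the class sums, the library with higher Fos, Fosb and Junb showed no higher Jun.

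The promoters of 3 of these AP-1 genes, 2 that were higher at P21 and Jun, which was not, are shown because CREB binding upstream of the start is a textbook route of Fos induction. Each is the 250 bases before the RefSeq start on GRCm38.p6, written along the gene's strand, with capitals marking TGACG or its reverse complement CGTCA, the core of the cyclic AMP response element. The Fos window lies at chr12:85473640-85473889 on the plus strand, the Junb window at chr8:84978749-84978998 on the minus strand and the Jun window at chr4:95052223-95052472 on the minus strand.
Fos: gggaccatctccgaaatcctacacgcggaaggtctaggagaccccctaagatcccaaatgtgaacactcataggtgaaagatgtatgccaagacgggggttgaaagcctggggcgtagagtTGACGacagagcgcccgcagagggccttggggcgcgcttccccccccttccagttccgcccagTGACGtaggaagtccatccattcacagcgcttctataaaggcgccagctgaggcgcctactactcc
Junb: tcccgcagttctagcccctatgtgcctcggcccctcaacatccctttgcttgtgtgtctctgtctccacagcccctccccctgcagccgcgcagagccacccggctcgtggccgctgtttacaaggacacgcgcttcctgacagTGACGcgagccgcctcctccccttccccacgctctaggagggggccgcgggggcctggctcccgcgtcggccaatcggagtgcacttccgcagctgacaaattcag
Jun: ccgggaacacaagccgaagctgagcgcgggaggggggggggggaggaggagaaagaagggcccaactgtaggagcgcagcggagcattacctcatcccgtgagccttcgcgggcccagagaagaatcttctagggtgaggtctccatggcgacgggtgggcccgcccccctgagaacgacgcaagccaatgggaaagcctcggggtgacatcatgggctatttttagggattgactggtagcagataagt
The Fos window held 2 such cores, at 129 to 125 and 66 to 62 bases before the start, and the Junb window held 1, at 106 to 102. The Jun window held none.

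RefSeq windows were read for 7 of the 10 genes. Egr3 and Arc had no RefSeq entry, and Egr1, on chromosome 18, was left out of the search. Of the 7, 6 held the TGACG core on either strand, all but Jun: 1 in Fosb, 2 in Npas4 and 4 each in Nr4a1 and Nr4a3. Of all 32851 windows of this length, 17.8% held it. The full palindrome TGACGTCA, which contains the core, was in 0 of the 7 and in 1.55% of all windows. The AP-1 site TGANTCA was in 0 of 7 (6.75% of all), the EGR site GCGTGGGCG in 0 of 7 (0.536%), the serum response factor's CArG box in 0 of 7 (1.47%) and the NR4A site AAAGGTCA in 0 of 7 (1.34%). These are matches of letters and no measure of binding. Bases beyond these windows, and the promoters of Egr1, Egr3 and Arc, were not searched. The counts of 0 therefore do not show that the promoters lack such sites. Npas4 and Nr4a1, which differed by less than 2-fold between P8 and P21, carried the core as Fos did.

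Egr1 and Egr3 encode zinc-finger transcription factors that bind GC-rich sites, and Egr1, also known as Zif268, is the classic marker of visual activity. In excitatory neurons Egr1 stood at 0.520, 0.403, 1.67 and 22.0 CPM, on 6, 6, 22 and 322 UMIs. P21 was 13.2-fold P8 (8.58 to 21.4). In inhibitory neurons it stood at 0.335, 2.04, 1.62 and 27.3 CPM, on 2, 13, 18 and 309 UMIs, and P21 was 16.8-fold P8 (10.5 to 28.8). Egr1 also showed an earlier, small step in excitatory neurons, where P8 was 4.14-fold P4 (1.63 to 12.5); in inhibitory neurons such a step lay between E19 and P4, 6.07-fold (1.37 to 55.4) on 2 and 13 UMIs, and P4 and P8 lay within each other's intervals. Egr3 stood at 0.260, 0.403, 0.455 and 5.27 CPM in excitatory neurons and at 0.335, 0.470, 0.271 and 2.57 CPM in inhibitory neurons. P21 was 11.6-fold P8 in the former (5.09 to 32.6) and 9.48-fold in the latter (2.94 to 48.6), there on 3 and 29 UMIs.

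Arc encodes a cytoskeleton-associated protein that promotes removal of AMPA receptors from synapses. It stood at 0.780, 0.604, 0.531 and 5.41 CPM in excitatory neurons, on 9, 9, 7 and 79 UMIs, and P21 was 10.2-fold P8 (4.72 to 26.2). In inhibitory neurons it stood at 0.503, 0.470, 0.0902 and 1.50 CPM, on 3, 3, 1 and 17 UMIs, with a ratio of 16.7 (2.61 to 697) that rests on 1 UMI at P8. Arc was thus sparse in inhibitory neurons even at P21.

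Npas4 encodes a bHLH-PAS factor known for its dependence on neuronal calcium entry rather than growth factors, and for its part in forming inhibitory synapses. It stood at 8.41, 11.1, 11.8 and 8.01 CPM in excitatory neurons, on 97, 166, 156 and 117 UMIs. P21 was 0.68-fold P8 (0.53 to 0.87), lower beyond counting error but by less than 2-fold. In inhibitory neurons it stood at 6.88, 10.2, 10.7 and 9.55 CPM, and the ratio of 0.89 (0.68 to 1.16) included 1.

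Nr4a1 and Nr4a3 encode orphan nuclear receptors of 1 family, which act without a known natural ligand. Nr4a1, also known as Nur77, stood at 23.3, 30.4, 28.1 and 34.1 CPM in excitatory neurons and at 20.6, 30.2, 35.3 and 41.4 CPM in inhibitory neurons. P21 was 1.22-fold P8 in the former (1.06 to 1.39) and 1.17-fold in the latter (1.02 to 1.35). Its relative Nr4a3 had a different course. It stood at 1.91, 1.48, 0.834 and 15.5 CPM in excitatory neurons and at 1.17, 0.470, 0.812 and 15.6 CPM in inhibitory neurons. P21 was 18.6-fold P8 (10.2 to 37.9) and 19.2-fold P8 (9.87 to 42.6), on 11 and 227 and on 9 and 176 UMIs.

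**Figure D2:**
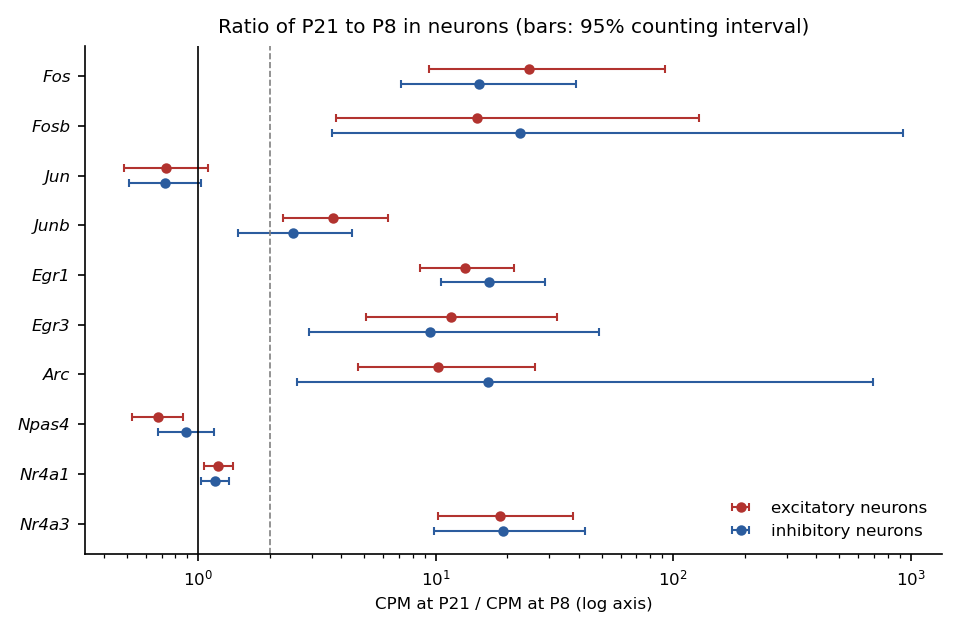
Ratio of the P21 level to the P8 level of each gene (horizontal log axis) in excitatory neurons (red) and inhibitory neurons (blue), with 95% intervals for counting error; the solid line marks a ratio of 1 and the dashed line a ratio of 2. The points of Jun, Npas4 and Nr4a1 lie between 0.68 and 1.22, and those of the other 7 genes between 2.50 and 24.6.

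Several other measures moved with the P21 library. Median depth was 14158 and 19601 UMIs per excitatory nucleus at P8 and P21, and 9265 and 14010 per inhibitory nucleus. The 5 oligodendrocyte markers together stood at 53.6 and 268 CPM in excitatory neurons and at 67.7 and 337 CPM in inhibitory neurons. In the oligodendrocyte lineage at P21, Egr1 stood at 6.80 CPM, Fos at 2.55 and Nr4a3 at 1.28, each lower than in either neuron class, whereas Arc stood at 12.8 CPM, higher than in the neurons. The part of oligodendrocyte RNA in the neuronal levels was not tested. The median percent of mitochondrial UMIs per nucleus was 0.228% and 0.148% in excitatory neurons and 0.340% and 0.188% in inhibitory neurons, and that of ribosomal protein genes 0.216% and 0.151% and 0.261% and 0.159%. The part of depth and of these shares in the result was not tested beyond the thinning given below. The summed astrocyte, endothelial and vascular leptomeningeal markers were lower in both neuron classes at P21 than at P8. Microglia markers stood at 12.2 and 11.1 CPM in excitatory and at 15.3 and 13.2 CPM in inhibitory neurons. The 4 blood markers stood at 233 and 267 CPM in excitatory and at 352 and 342 CPM in inhibitory neurons. The part of blood RNA was not tested. Of 8 stress genes that could be called in excitatory neurons, 0 were higher by 2-fold. How the animals were handled and lit before dissection, and how long dissection took, are not given in the sources used here, and their part in the result was not tested.

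At P21 the classes differed in a few of the genes. Arc was 3.60-fold higher in excitatory than in inhibitory neurons (2.11 to 6.48), at 5.41 against 1.50 CPM, and Egr3 was 2.05-fold higher (1.32 to 3.27); 2.53% of all genes were higher in excitatory neurons by 2-fold or more. In the other direction, Jun was 1.65-fold higher in inhibitory neurons (1.11 to 2.47), Egr1 1.24-fold (1.06 to 1.45) and Nr4a1 1.21-fold (1.07 to 1.38). Nr4a3 stood at the same level in both, with a ratio of excitatory to inhibitory of 1.00 (0.82 to 1.22). The intervals of Fos, Fosb, Junb and Npas4 also included 1. At P8 Jun and Nr4a1 were likewise higher in inhibitory neurons, by 1.66-fold (1.17 to 2.37) and 1.26-fold (1.09 to 1.45).

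The deposited annotation divides the neurons further into numbered subtypes, and 11 excitatory and 12 inhibitory ones had at least 20 nuclei at both P8 and P21. Egr1 was higher at P21 in all 11 excitatory and all 12 inhibitory subtypes, with the interval above 1 in 9 and 11 of them. Fos was higher in 10 of 11, with no UMI at either age in the other, and in 12 of 12. Nr4a3 was higher in 10 of 11 and 12 of 12, Arc in 11 of 11 and 10 of 12, Egr3 in 11 of 11 and 7 of 12, and Junb in 9 of 11 and 9 of 12. Fosb was higher in 6 of 11 and 7 of 12. Counting error was wide for several genes: the interval was above 1 in 7 and 6 subtypes for Fos, 9 and 7 for Nr4a3, 5 and 0 for Arc, 4 and 1 for Egr3, 3 and 2 for Junb and 1 and 0 for Fosb. Beyond counting error, only Egr1 among the 10 was higher in more than 7 subtypes of both classes. Jun was higher in 4 of 11 and 6 of 12, and Npas4 in 4 of 11 and 4 of 12.

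The subtypes were not alike in how far the genes reached at P21. Egr1 ran from 10.4 to 66.0 CPM over the excitatory subtypes, with a median of 14.2. EN6 was highest, and 9 of the other 10 had intervals wholly below its own. The intervals by subtype count UMIs as independent. They are too narrow where a few nuclei hold many UMIs, and the order of subtypes can rest on few nuclei. In EN6 Egr1 was counted once in 101 nuclei at P8 and 69 times in 64 nuclei at P21. Fos in EN6 went from 0 to 25 UMIs and Nr4a3 from 0 to 49 UMIs. With the 0 set to 3 counts the ratios were 9.19 and 18.02, and the lower bounds of their intervals were 6.94 and 14.1. EN10, with 32 nuclei at P21, was next for Egr1 at 50.1 CPM (33.0 to 72.8), and first for Nr4a3 at 53.8 CPM (36.0 to 77.2) and Fosb at 11.1 CPM (4.08 to 24.2). EN2 marked the other end, with no Fos or Fosb UMI and 1 Nr4a3 UMI in 36 nuclei, although it held 9 Egr1 and 6 Arc UMIs.

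Among inhibitory subtypes Egr1 ran from 11.05 to 54.5 CPM, with a median of 24.8, and IN9 and IN4 were highest at 54.5 (35.6 to 79.8) and 46.7 CPM (35.0 to 61.1). The intervals of these subtypes overlap. IN4 also led in Nr4a1 at 85.5 CPM, Egr3 at 13.2 CPM and Junb at 10.6 CPM. IN3 led in Fos at 19.1 CPM (13.5 to 26.2). Arc gave no UMI in the 126 nuclei of IN3, where the floor of 3 counts stands at 1.51 CPM. IN10 and IN3 led in Nr4a3, at 37.6 CPM (21.9 to 60.1) and 31.6 CPM (24.3 to 40.4). EN6, EN10, EN2, IN3, IN4, IN9 and IN10 are named because of their values.

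**Figure D3:**
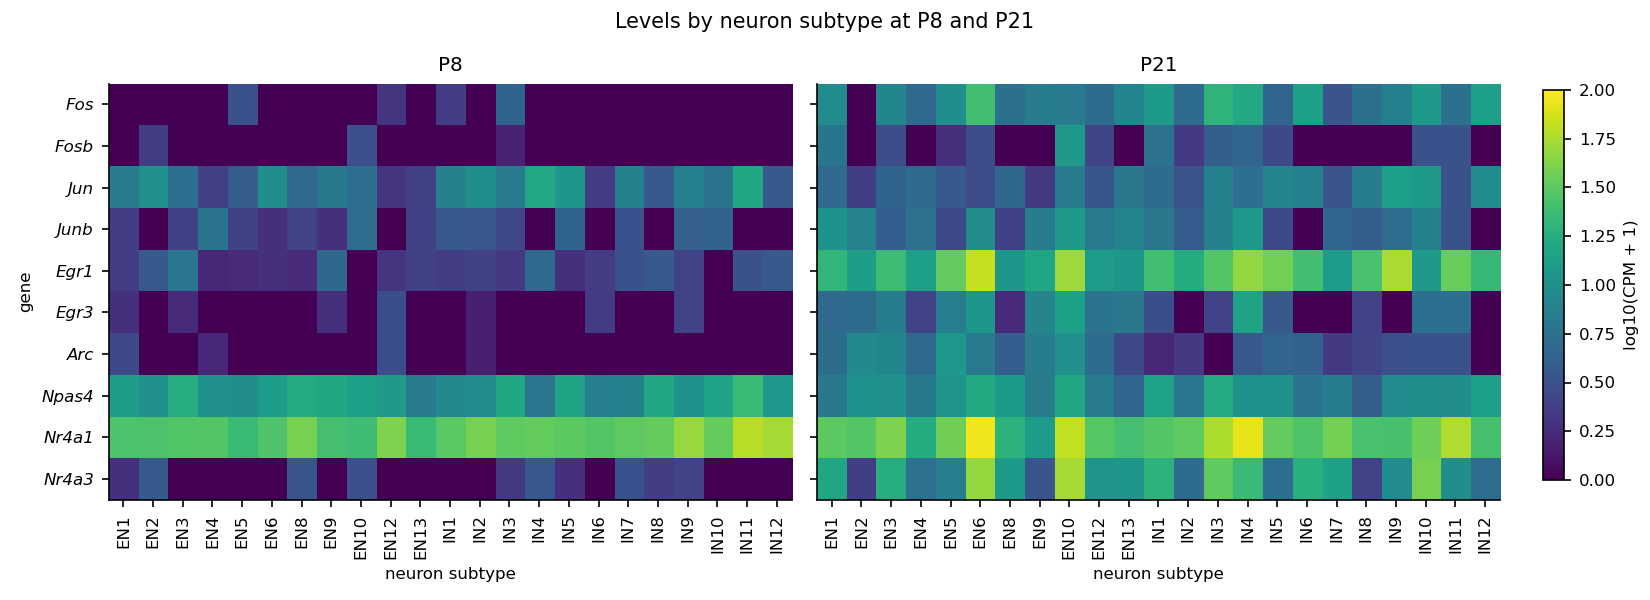
Level of each gene (rows) in each neuron subtype with at least 20 nuclei at both ages (columns, EN excitatory and IN inhibitory), at P8 on the left and P21 on the right; colour gives log10(CPM + 1). Egr1 is brighter at P21 in every column, with EN6 brightest, and the Nr4a1 row holds both brighter columns (EN6, EN10, IN4) and darker ones (EN8, EN9).

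Nr4a1, nearly level in the class sums, had subtype ratios on both sides of 1. Over excitatory subtypes it ran from 21.6 to 40.3 CPM at P8 and from 11.8 to 89.97 CPM at P21. In EN6 it went from 26.9 to 89.97 CPM, 3.35-fold (2.21 to 5.20), and in EN10 from 23.0 to 64.9 CPM, 2.83-fold (1.40 to 6.17). In EN8 it went from 37.7 to 18.6 CPM, 0.50-fold (0.29 to 0.82). Among inhibitory subtypes IN4 went from 32.8 to 85.5 CPM, 2.61-fold (1.68 to 4.19), and IN3 from 31.7 to 55.7 CPM, 1.76-fold (1.26 to 2.47). Nr4a1 was higher at P21 in 7 of 11 excitatory and 5 of 12 inhibitory subtypes, and lower in 4 and 7. The interval lay above 1 in 2 subtypes of each class. It lay below 1 in 1 excitatory subtype, EN8, and in 0 inhibitory ones. A fall beyond counting error was thus seen in EN8 alone. Npas4 in EN6, EN10, EN8, IN4 and IN3 had ratios whose intervals included 1. It stood at 12.1 and 15.3 CPM in EN6, at 14.7 and 16.1 CPM in IN3, and at 5.04 and 9.70 CPM in IN4, 1.92-fold (0.57 to 8.28).

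In single nuclei the genes were patchy. At P21 an Egr1 UMI was found in 23.9% of excitatory nuclei (20.7 to 27.3) and 24.5% of inhibitory nuclei (21.4 to 27.7), against 2.08% and 1.65% at P8. In astrocytes, which had a median of 5525 UMIs, the share at P21 was 5.23%. An Arc UMI was found in 8.50% of excitatory nuclei, 2.16% of inhibitory nuclei and 0.697% of astrocytes. With every nucleus thinned to 2000 UMIs, which removes the difference in depth, Egr1 was found in 3.96% of excitatory nuclei at P21 and 0.231% at P8, and in 4.73% and 0.184% of inhibitory nuclei. The difference in Egr1 therefore remained at equal depth. For Npas4 the thinned shares in excitatory nuclei were 1.47% at P21 and 2.42% at P8.

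Some nuclei at P21 carried many copies. In excitatory neurons 37 nuclei held 3 or more Egr1 UMIs at P21 and 1 at P8. Nr4a3 reached 18 UMIs in 1 nucleus, and the top 7 nuclei held 38.3% of its UMIs. Nr4a1 was found in nearly the same share of excitatory nuclei at both ages, 33.2% and 34.9%, but 61 nuclei held 3 or more UMIs at P21 and 19 at P8. Thinned to 5000 UMIs, 3.58% of excitatory nuclei held 2 or more Nr4a1 UMIs at P21 (2.30 to 5.28) and 0.704% at P8 (0.259 to 1.53), whereas the shares with at least 1 were 15.5% and 14.0%. In inhibitory nuclei the shares with 2 or more were 2.34% and 1.75%, with overlapping intervals. At equal depth, more excitatory nuclei thus held several Nr4a1 UMIs at P21, with nearly the same share holding any.

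The genes also met in the same nuclei. At P21, 15.2% of excitatory nuclei (104 of 682) held UMIs of 3 or more of the 10 genes and 12.2% of inhibitory nuclei (90 of 740), against 1.85% and 0.643% at P8. A single excitatory nucleus at P21 held all 10, and at P8 no nucleus held more than 4. Thinned to 5000 UMIs, 8.64% of excitatory nuclei held 2 or more of the genes at P21 (6.63 to 11.03) and 2.58% at P8 (1.63 to 3.88). In inhibitory nuclei the shares were 9.24% (7.23 to 11.6) and 2.24% (1.42 to 3.34).

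To show which genes met, P21 nuclei were split by whether they held an Egr1 UMI. Among excitatory neurons 163 did and 519 did not, with median depths of 21354 and 19100 UMIs. All 9 other genes were higher in the nuclei with Egr1, 8 of them by 2-fold or more. Of all genes that could be called, 1.13% were. Fos, Fosb, Jun, Junb, Egr3 and Arc reached the minimum of 5 CPM only in the nuclei with Egr1. The count is therefore a description and not support. Fos stood at 21.6 against 2.25 CPM, 9.62-fold (6.05 to 15.8), and Egr3 at 15.8 against 1.41 CPM, 11.2-fold (6.31 to 21.2). Nr4a3 was 6.92-fold higher, Junb 6.63-fold and Arc 5.23-fold. The 3 genes that did not follow the age step were also higher in these nuclei: Nr4a1 2.74-fold (2.29 to 3.28), Jun 2.19-fold (1.17 to 4.05) and Npas4 1.96-fold (1.33 to 2.87). UMIs of 1 nucleus are not independent, so these intervals are too narrow. Subtypes were not kept apart in this split or in those below. EN6 and EN10, high in Egr1, were also high in Nr4a1 and Nr4a3, and the part of subtype makeup in the ratios was not tested.

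In inhibitory neurons the split gave 181 nuclei with Egr1 and 559 without, with median depths of 15644 and 13667 UMIs. Again all 9 other genes were higher, and of the 8 that could be called 7 were higher by 2-fold or more. Of all genes that could be called, 0.541% were. Fosb, Jun, Junb and Egr3 reached 5 CPM only in the nuclei with Egr1, so this count too is a description. Fos was 4.32-fold higher (2.89 to 6.51), Egr3 6.01-fold (2.62 to 15.0) and Nr4a1 1.66-fold (1.37 to 2.01). Jun parted from the rest when nuclei were split by Nr4a1 instead. In inhibitory nuclei with an Nr4a1 UMI it was 0.40-fold its level in those without (0.20 to 0.76), on 13 and 47 UMIs. Among excitatory nuclei its ratio was 0.72, with an interval of 0.36 to 1.37 that included 1. Nr4a3 was 6.55-fold higher in inhibitory nuclei with an Nr4a1 UMI (4.44 to 9.93), where 0.44% of all genes were higher by 2-fold or more. In excitatory nuclei Nr4a3 was 7.87-fold higher (5.51 to 11.5), against 0.775% of all genes. Nr4a3 reached 5 CPM only in the nuclei with Nr4a1 in both classes. Split by Npas4, 4 of the other 9 genes were higher by 2-fold in excitatory nuclei (Fos, Fosb, Egr3 and Nr4a3, against 1.49% of all genes). In inhibitory nuclei 3 were (Fos, Fosb and Junb, against 1.48%). Fosb in both classes, Egr3 in excitatory and Junb in inhibitory neurons reached 5 CPM only in the nuclei with Npas4. Arc gave 0 UMIs in the 83 inhibitory nuclei with Npas4.

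**Figure D4:**
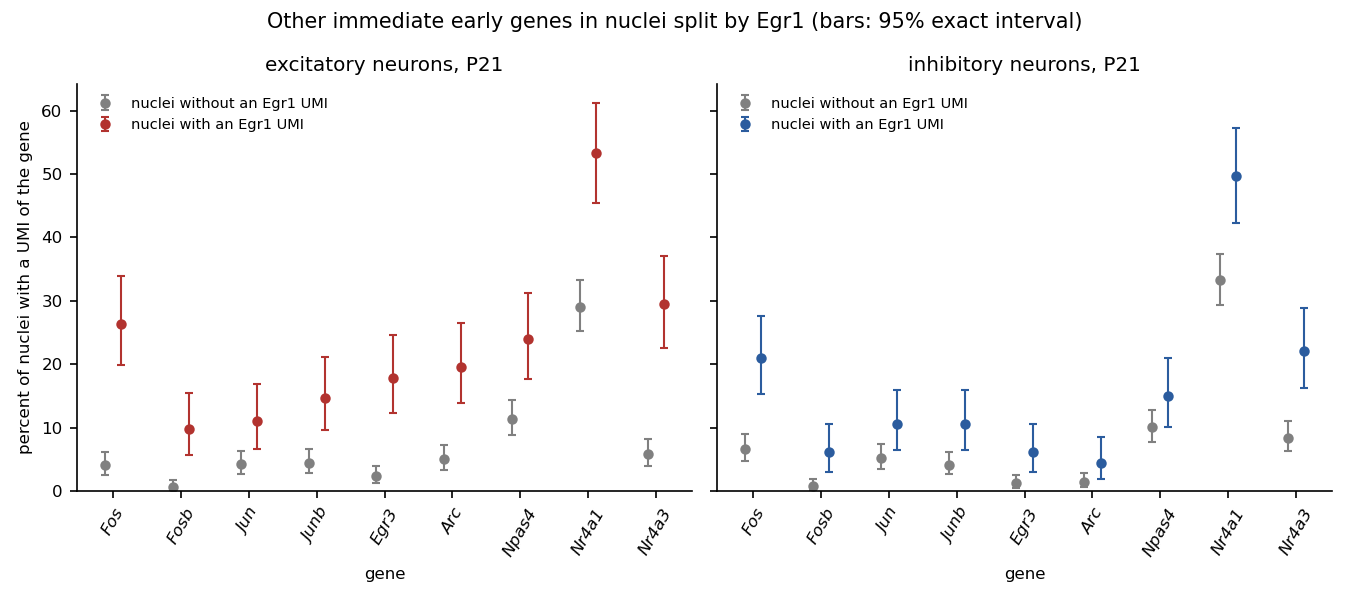
Share of P21 nuclei with a UMI of each other gene (vertical axis, percent) in nuclei without an Egr1 UMI (grey) and with one (coloured), for excitatory neurons on the left and inhibitory neurons on the right; bars are 95% Clopper-Pearson intervals. Fos is found in 26.4% of excitatory nuclei with Egr1 and 4.05% of those without.

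Outside neurons some of the genes took other courses, while Egr1 in vascular leptomeningeal cells and in the epithelial class was higher at P21, as in neurons. Arc, in the oligodendrocyte lineage, gave 0 UMIs in 143 nuclei at P8 and 30 UMIs in 306 nuclei at P21, 12.8 CPM (8.604 to 18.2). With the 0 set to 3 counts the ratio was 3.12, and the lower bound of its interval was 2.38. In this lineage 12.8% of all genes were higher by 2-fold or more. The level was 26.8 CPM in committed oligodendrocytes (13 UMIs in 55 nuclei) and 10.8 CPM in myelinating oligodendrocytes (17 UMIs in 187 nuclei), with 0 UMIs in 64 precursors. Astrocytes at P21 had 1.23 CPM of Arc and vascular leptomeningeal cells had 0 UMIs. Nr4a1 was lower at P21 in the same lineage, going from 23.2 to 5.53 CPM, 0.24-fold (0.11 to 0.52). Egr1 went from 15.0 to 6.80 CPM, 0.45-fold (0.20 to 1.08), with an interval that included 1. There 22.1% of all genes were lower by 2-fold or more. Jun went from 27.3 to 14.0 CPM, 0.51-fold (0.29 to 0.95), short of 2-fold. The lineage's makeup differed as well: at P8 109 of its 143 nuclei were precursors and 33 committed, and at P21 64 of 306 were precursors, 55 committed and 187 myelinating. In precursors alone Nr4a1 stood at 25.4 and 20.03 CPM, 0.79-fold (0.25 to 2.23).

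Vascular leptomeningeal cells, the fibroblast-like cells of the brain's coverings, had 3 Egr1 UMIs in 70 nuclei at P8 and 77 in 139 nuclei at P21. This was 6.23 and 83.9 CPM, a ratio of 13.5 (4.44 to 66.7), where 5.82% of all genes were higher by 2-fold or more; the 77 UMIs came from 25 nuclei. The class labelled epithelial cells, whose nuclei led in neither epithelial marker level nor any other list and were second for the vascular leptomeningeal markers at 716 CPM, held 32 and 40 nuclei at P8 and P21. It had 28.8 and 102 CPM of Nr4a1, 3.54-fold (1.44 to 10.5), and 24.0 and 83.7 CPM of Nr4a3, 3.49-fold (1.30 to 11.7). Its Egr1 stood at 9.60 and 54.6 CPM, 5.69-fold (1.32 to 51.3), on 2 and 15 UMIs, too few to be called. In this class 7.13% of all genes were higher by 2-fold or more. In astrocytes Jun stood at 37.8, 28.7, 10.5 and 6.77 CPM from E19 to P21, and E19 and P21 do not overlap (26.3 to 52.6 and 3.38 to 12.1); 21% of all genes were lower there by 2-fold or more between these stages. Astrocyte Egr1 stood at 4.32, 5.94, 7.26 and 9.23 CPM with overlapping intervals. Endothelial Jun stood at 63.1, 65.5, 87.6 and 108 CPM, on 12 to 22 nuclei a stage.

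**Figure D5:**
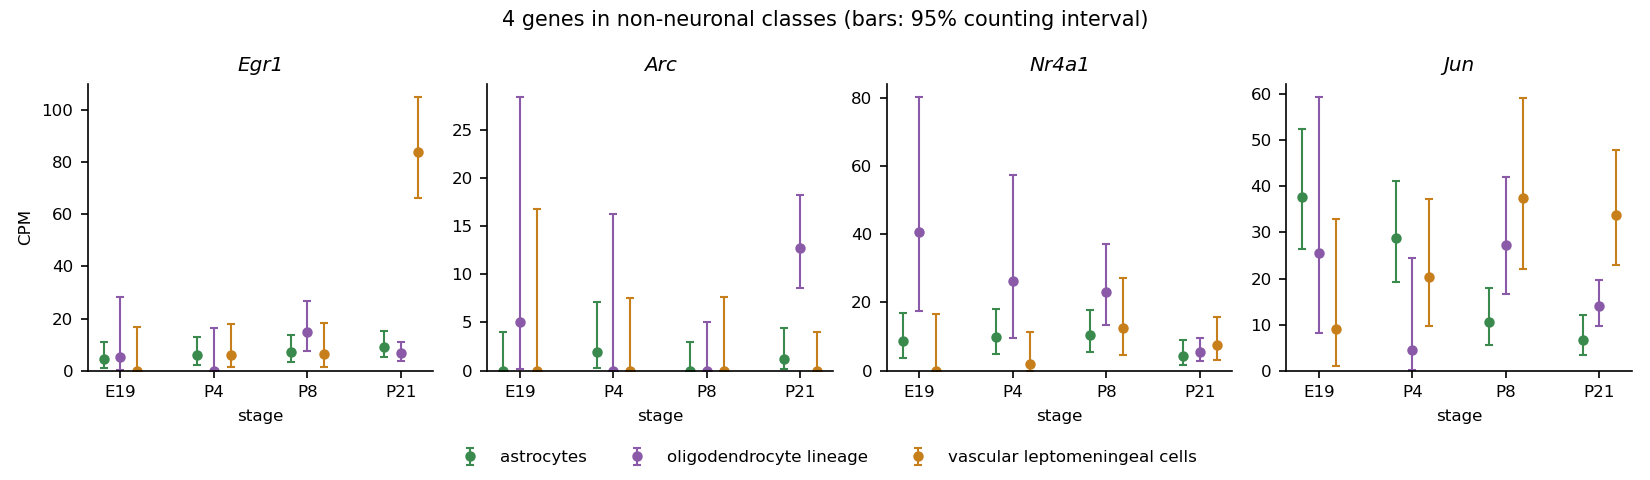
Level of Egr1, Arc, Nr4a1 and Jun in CPM (vertical axes) at the 4 stages (horizontal axes) in astrocytes (green), the oligodendrocyte lineage (purple) and vascular leptomeningeal cells (orange), with 95% Poisson intervals. At P21 Egr1 stands at 83.9 CPM in vascular leptomeningeal cells and Arc at 12.8 CPM in the oligodendrocyte lineage; astrocyte Jun stands at 37.8 CPM at E19 and 6.77 CPM at P21.

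Lists of related genes were set beside the family. Of 44 other rapid response genes, 19 could be called in excitatory neurons, of which 4 were higher by 2-fold and 1 lower. In inhibitory neurons 20 could be called, 5 higher and 1 lower. Over all genes that could be called, 4.43% were higher and 6.45% lower in excitatory neurons, and 4.76% and 6.88% in inhibitory neurons. These shares stand beside the lists below as well. The median log2 ratio of the rapid response genes was 0.09 and 0.21, against 0.00 over all genes that could be called in either class. Fosl2, another Fos relative, was highest among the genes of the list that could be called in both classes, at 8.48-fold (5.20 to 14.7) in excitatory and 4.44-fold (2.51 to 8.37) in inhibitory neurons. The clock gene Per1 was 3.44-fold and 3.57-fold higher, and Coq10b, for a coenzyme Q-binding protein, 3.10-fold and 3.06-fold. Klf6, a Krüppel-like factor, was lower, at 0.43-fold and 0.36-fold. Plk3, a polo-like kinase, stood at 0.56-fold and 0.60-fold, Plk2 at 0.59-fold in excitatory neurons and Jund at 0.59-fold in inhibitory neurons. Most of the list that could be called thus differed by less than 2-fold.

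Partners and corepressors of the family were mixed in the same way: of 11, 9 could be called in excitatory neurons with 3 higher by 2-fold and 0 lower (Fosl2 among them, as it is in both lists), and 8 in inhibitory neurons with 2 higher and 0 lower. The median log2 ratios were 0.65 and 0.27. Nab2, a corepressor that EGR proteins bind and whose gene they induce, was 8.35-fold higher in excitatory neurons (4.03 to 20.1), on 8 and 74 UMIs. Rxra, a nuclear receptor partner of Nr4a1, was 2.20-fold and 2.90-fold higher, and Nab1 stood at 1.98-fold in inhibitory neurons. Jund, the Jun relative that is abundant at rest, stood at 0.62-fold in excitatory neurons. Arntl and Arnt2, of the bHLH-PAS family to which Npas4 belongs, stood between 0.80-fold and 0.94-fold in the 2 classes.

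Late activity-induced genes, 16 in all, had 12 that could be called in excitatory neurons with 2 higher and 0 lower, and 10 in inhibitory neurons with 2 higher and 2 lower; their median log2 ratios were -0.17 and -0.13. Scg2, for the granule protein secretogranin II, was 3.98-fold and 3.57-fold higher, and Pcsk1, a prohormone convertase, 3.40-fold and 3.99-fold. Nrn1 (neuritin) and Nptx2 (a neuronal pentraxin that clusters AMPA receptors) were lower in inhibitory neurons, at 0.31-fold and 0.44-fold. Adcyap1 stood at 1.65-fold, Nfil3 at 0.55-fold, Vgf at 0.59-fold and Rgs4 at 0.74-fold in excitatory neurons; in inhibitory neurons Vgf stood at 1.28-fold and Pim1 at 0.57-fold.

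The 32 genes of signalling to these promoters could all be called in both classes, and 1 passed 2-fold: Camk2a, a calcium/calmodulin kinase subunit, 2.18-fold higher in inhibitory neurons (2.05 to 2.32) and at 1.78-fold in excitatory neurons. The median log2 ratios were 0.10 and 0.10. Grin1, the obligate NMDA receptor subunit, stood at 1.47-fold and 1.75-fold, Mkl2 at 1.60-fold in excitatory and Map2k1 at 1.64-fold in inhibitory neurons. At the other end were Mapk3 at 0.64-fold in both, Camk4 and Camk2d at 0.74-fold and 0.75-fold in excitatory neurons, and Camkk2 at 0.67-fold in inhibitory neurons. Of 14 stress genes, 8 could be called in each class: 0 were higher by 2-fold, and the chaperone gene Hspa8 was lower in inhibitory neurons at 0.40-fold, with median log2 ratios of -0.52 and -0.39. Hspa8 stood at 0.54-fold in excitatory neurons, Cirbp at 0.57-fold and 0.61-fold, and Ddit3 and Hsph1 between 1.41-fold and 1.95-fold.

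Over 96 pools of 1 neuron subtype and 1 stage, genes whose log2 level correlated highly with the mean of the 10 were BC030499 (Pearson's r of 0.80), Klf9 (0.79), Lncpint (0.79), Pde10a (0.79), Ttll11 (0.78), Fn3k (0.77), Naaladl2 (0.76), Ago3 (0.76) and Gm13629 (0.75). Pools of 1 stage share a library, its depth and its background RNA. Over the 23 P21 pools alone, r was 0.03 for BC030499, 0.46 for the Krüppel-like factor Klf9 and 0.42 for the phosphodiesterase Pde10a. It was 0.17 for Lncpint and 0.09 for Fn3k. For Ttll11, Ago3, Gm13629 and Naaladl2 it was negative, at -0.05, -0.23, -0.24 and -0.30. Most of these correlations were thus weak or reversed within P21. For Egr1 alone the most correlated genes included BC030499 (0.87) and Klf9 (0.84), which stood at 0.27 and 0.61 within P21. The first 3 for Jun were Otx2 (0.52), Dhx15 and Otx2os1; for Npas4 Arhgef1 (0.52), Gm27032 and Hsf5; and for Nr4a1 Peg3 (0.62), Dnmt3a and Cit. Between the members, the median r with the other 9 was 0.61 for Egr1, 0.33 for Nr4a1, 0.03 for Npas4 and -0.11 for Jun over all pools, and 0.37, 0.53, 0.43 and 0.05 within P21.

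On GRCm38 the genes lie at chr12:85473890-85477273 (Fos), chr7:19302696-19310051 (Fosb), chr4:95049034-95052222 (Jun), chr8:84974484-84978718 (Junb), chr18:34859823-34864984 (Egr1), chr14:70077203-70082614 (Egr3), chr15:74669083-74672570 (Arc), chr19:4984355-4990316 (Npas4), chr15:101254269-101274795 (Nr4a1) and chr4:48045153-48086447 (Nr4a3). Jun overlaps the antisense gene Junos and Junb overlaps Prdx2, both on the opposite strand. Whether counting used the read strand is not given in the sources used; the UMIs of Jun and Junb are uncertain to that extent. The other 8 overlap no annotated gene. Reads in introns were counted, and exons cover 100% of the Jun span, 17.1% of the Nr4a1 span and 14.5% of the Nr4a3 span, so levels were compared within a gene and not between genes.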

How the data were processed

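Single nuclei of mouse superior colliculus were profiled by droplet RNA sequencing in 4 libraries, 1 a stage. The deposited matrix holds UMI counts per gene and nucleus. Per the submitters' processing notes, the authors used Cell Ranger 3.0.2 and the mm10 genome, with a pre-mRNA reference per the series' design text, so intronic reads were counted. The filters on nuclei, the treatment of doublets and the use of read strand are not given in the sources used here. Classes and subtypes are the authors' deposited annotation, as are the percent of mitochondrial reads per nucleus; 4 deposited per-nucleus columns were not used. Recomputed totals equalled the deposited ones in all 9724 nuclei.

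Counts were summed per library and class or subtype and divided by the summed total (CPM). Intervals are 95%: exact Poisson for CPM, exact conditional binomial for ratios and Clopper-Pearson for shares. Those for CPM and ratios take UMIs as independent, and are too narrow where a few nuclei hold many UMIs. A count of 0 was set to a floor of 3 counts for ratios. With 1 library a stage no test between stages was run. A gene was called where the ratio was at least 2-fold, the higher level was 5 CPM or more, and both stages together held 20 UMIs. Nuclei were thinned to 2000 or 5000 UMIs with seed 11, leaving out shallower ones: for 5000, 15 excitatory nuclei at P8 and 11 at P21, and 59 and 15 inhibitory nuclei. GENCODE M21 matched 31011 of 31053 gene identifiers.

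The members and lists were chosen with earlier results of these data known. All 10 members are named, and of each list the 3 callable genes with the highest and the 3 with the lowest ratio; subtypes were singled out by their values. The genes most correlated with the members are given except 1, which is not reported here. Alternatives were another normalization, an added 5 CPM, other minimums on levels, thinning, equal weights for subtypes or nuclei, and leaving out nuclei with mixed markers or the most UMIs. Python 3.11.15, numpy 2.4.6, scipy 1.17.1, pandas 2.3.3 and matplotlib 3.10.9 were used, and the calls were tested on simulated data.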

Additional observations from a re-analysis of the deposited data

Results flagged for a closer look

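Nr4a1 was lower at P21 than at P8 in the oligodendrocyte lineage, 0.239-fold, while it was higher in excitatory neurons (1.22-fold), inhibitory neurons (1.17-fold) and the class labelled epithelial cells (3.54-fold). The direction was thus opposite between the oligodendrocyte lineage and each of these 3 classes. In oligodendrocyte precursors alone the ratio was 0.79 (0.25 to 2.23), and myelinating oligodendrocytes, 187 of the 306 nuclei at P21, were not among the subtypes with 20 nuclei at P8. Protoplasmic astrocytes were also lower, 0.34-fold (0.10 to 0.95). With 1 library a stage the difference between classes was not tested.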

How the results depend on the processing

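No paired analysis was possible because each stage has 1 library (replicate 1 only). In excitatory neurons 6 members were called higher from P8 to P21; the number was 3 with 5 CPM added to both levels, 2 after thinning to 2000 UMIs, 3 without the 1% of nuclei with the most UMIs of the gene and 1 with a minimum of 20 CPM. Thinning, leaving out those nuclei and the higher minimum left 4, 5 and 2 members that could be called, in place of 8; of all 10, 6, 7 and 7 were still higher by 2-fold. In inhibitory neurons 3 were called, 7 without a filter and 1 with a minimum of 20 CPM. After thinning to 2000 UMIs, 3 were called higher there and Jun was called lower, at a log2 ratio of -1.37. Thinned to 5000 UMIs, Jun in inhibitory neurons stood at 7.39 CPM at P8 and 4.69 CPM at P21. Of 140 member ratios recomputed, 117 moved by less than their counting error, 21 moved further and 2 took a negative sign after thinning only because a P8 count of 0 was set to 3 counts, with log2 ratios of -0.24 for Fosb in excitatory and -1.03 for Arc in inhibitory neurons, each with 1 positive nucleus at P21 and 0 at P8, which shows no direction. With P4 in place of P8, an alternative chosen after seeing the data, 6 and 3 members were called higher. Nuclei with markers of both neuron classes made up 34.8% of excitatory nuclei at P8 and 36.8% at P21, and 17.0% and 11.4% of inhibitory nuclei; without them the numbers were 6 and 3. Low counts at P8 limit the ratios of Fosb, Egr3 and Arc, and 1 library a stage limits every comparison.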
